A study of Mus musculus with 22 samples.

Results

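The immediate early genes are transcripts that a cell switches on within minutes of a stimulus, from transcription factors already present and without new protein synthesis. Growth factors, stress kinases and cyclic AMP act on them through serum response factor, the ternary complex factors and CREB, and their RNA is short-lived, so their level at one moment reflects recent signalling. Many encode transcription factors, among them the AP-1 subunits, in which a Fos protein pairs with a Jun protein. In liver they are best known for their burst after partial hepatectomy, injury and feeding. Described here are 9 of them, Egr1, Fos, Fosb, Jun, Junb, Atf3, Ier2, Ier3 and Btg2, taken as the features of the array whose annotated gene symbol is one of these names. All 9 were found, each with 1 feature, among 22206 features.

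The samples were whole livers of male mice with a global deletion of adiponectin, a hormone of fat cells (strain B6;129-Adipoqtm1Chan/J on a C57BL/6J background). The mice were 3 to 8 months old, ate standard chow freely, and each day had 12 h with lights on and 12 h without. Livers were taken after cervical dislocation every 4 h, and zeitgeber time (ZT) counts hours from lights on. There were 4 livers each at ZT2, ZT10, ZT14 and ZT22 and 3 each at ZT6 and ZT18, every liver on its own Clariom S array. The dark phase holds ZT14, ZT18 and ZT22. A letter after the time names an array (ZT2a), each array was taken as 1 mouse, and p-values measure only how far these samples spread. All groups share the knockout; wild-type livers were not analysed here, and no comparison measures an effect of adiponectin. The deletion is in the germline, so every tissue carries it throughout life.

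Levels are log2 values. All 22 array medians lay between 5.28 and 5.36 and the lower quartiles between 3.67 and 3.91, so a level near 4 can hardly be told from background. The 4 markers of pancreatic acinar cells averaged 4.2 to 5.1 in the 22 arrays, so levels in that range are uncertain as well. The 6 hepatocyte markers averaged 17.84 to 18.26 in the 22 arrays, and 3 adipocyte markers 3.03 to 3.92. The targeted gene, Adipoq, read 3.30 to 4.69, which checks the genotype little because liver makes little of it. In 5 arrays (ZT6b, ZT6c, ZT14b, ZT14d and ZT22a) Tff3, the gene of a secreted peptide of the trefoil family, read 10.35 to 13.63, against 2.31 to 4.73 in the other 17. These arrays stand apart in many other genes as well, so the main results that move with them are given with and without them.

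The start regions of the genes that moved most between livers, and of Fos as the model early gene, are shown for the response elements that sit in them. Of the 9 genes, 7 have an entry in the RefSeq promoter table (build GRCm38.p6), and Egr1 and Ier2 do not. Each window runs 5′ to 3′ on the gene's own strand from 250 bases before the annotated start to 50 bases after it, with base 1 at the start. Capitals mark the cyclic AMP response element TGACGTCA, its core TGACG on either strand, the Jun variant TGACATCA or the TATA box TATAAA, a set of motifs chosen after the sequences were seen. The windows lie at chr8:84978699-84978998 for Junb, chr4:95052173-95052472 for Jun, chr1:134079106-134079405 for Btg2 and chr1:191183284-191183583 for Atf3, all on the minus strand, and at chr12:85473640-85473939 on the plus strand for Fos.
Junb: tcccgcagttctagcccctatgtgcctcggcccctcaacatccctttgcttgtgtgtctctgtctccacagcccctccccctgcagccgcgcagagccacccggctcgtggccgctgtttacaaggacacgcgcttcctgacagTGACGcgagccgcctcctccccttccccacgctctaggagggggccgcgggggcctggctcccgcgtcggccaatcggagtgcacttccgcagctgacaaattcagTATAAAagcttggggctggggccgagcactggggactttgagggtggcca
Jun: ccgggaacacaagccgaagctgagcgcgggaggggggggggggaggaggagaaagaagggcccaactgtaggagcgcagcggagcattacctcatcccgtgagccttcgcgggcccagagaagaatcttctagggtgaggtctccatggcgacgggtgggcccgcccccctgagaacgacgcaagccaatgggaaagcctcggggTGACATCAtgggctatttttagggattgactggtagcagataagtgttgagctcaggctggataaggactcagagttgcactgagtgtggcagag
Btg2: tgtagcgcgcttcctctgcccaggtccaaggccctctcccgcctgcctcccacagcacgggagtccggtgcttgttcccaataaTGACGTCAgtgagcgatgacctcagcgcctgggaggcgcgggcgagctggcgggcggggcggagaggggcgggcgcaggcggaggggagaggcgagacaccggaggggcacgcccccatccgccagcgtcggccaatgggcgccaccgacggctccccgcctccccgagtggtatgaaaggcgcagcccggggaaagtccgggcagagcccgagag
Atf3: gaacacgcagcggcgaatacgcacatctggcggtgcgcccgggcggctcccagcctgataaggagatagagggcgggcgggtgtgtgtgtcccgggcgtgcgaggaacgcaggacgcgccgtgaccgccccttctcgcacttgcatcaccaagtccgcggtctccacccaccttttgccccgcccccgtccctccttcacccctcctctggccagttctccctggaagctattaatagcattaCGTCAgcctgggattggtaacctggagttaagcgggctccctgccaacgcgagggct
Fos: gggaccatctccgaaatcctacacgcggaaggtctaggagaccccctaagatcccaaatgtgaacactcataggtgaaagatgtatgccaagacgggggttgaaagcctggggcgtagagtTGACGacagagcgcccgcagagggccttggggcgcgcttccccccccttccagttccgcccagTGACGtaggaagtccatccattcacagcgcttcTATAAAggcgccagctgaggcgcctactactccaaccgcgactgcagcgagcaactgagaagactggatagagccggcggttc

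Btg2 had the full element TGACGTCA at -166 to -159. The Jun window had the variant TGACATCA at -45 to -38. Junb had the core at -106 to -102. It held the letters TATAAA at 1 to 6, from the annotated start on and not upstream of it. Atf3 had the core on the reverse strand at -7 to -3. In the Fos window the core occurred at -129 to -125 and at -66 to -62, upstream of the TATA box at -33 to -28. Among the genes not printed, Fosb had the core at -60 to -56 and the EGR site GCGGGGGCG at -50 to -42, and Ier3 had a match to none of the motifs searched. Of all 32851 promoters in the table, searched on both strands, 1.79% hold the full element, 20.8% its core, 3.62% the Jun variant, 13.6% the TATA box, 2.91% the EGR site and 5.2% the AP-1 site TGACTCA. The core is part of the full element, which counts for both. The AP-1 site and the CArG box, the binding site of serum response factor, which 1.63% of promoters hold, had no match in any of the 7 windows. These are matches of letters within a short window, not binding sites.

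Across the day, 2 of the 9 genes, Egr1 and Junb, differed among the 6 times in limma's moderated F test at an adjusted p below 0.05, where 6.14% of all features did. The same 2 had a 24 h rhythm, meaning that a cosine of 24 h was called, against 7.62% of all features. The 6 times cover a single day, so whether a course recurs was not tested. At an unadjusted p below 0.05 were 5 and 2 of the 9 genes in these tests, where 19.8% and 21.1% of all features lie below it. Egr1 and Junb were both high in the first part of the light phase. Jun, Btg2, Atf3 and Ier2 did not pass, with time means that spanned 1.13 on the log2 scale in Ier2 to 2.86 in Jun. Fos and Ier3 lay near background, and Fosb was dim. The median span from the lowest to the highest time mean was 1.19 on the log2 scale for the 9 genes and 0.505 for all features. A span also widens with the spread between livers of the same time, which was large in several of these genes. Btg2 had a span of 1.73 and an adjusted p of 0.264 in the F test.

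**Figure D1:**
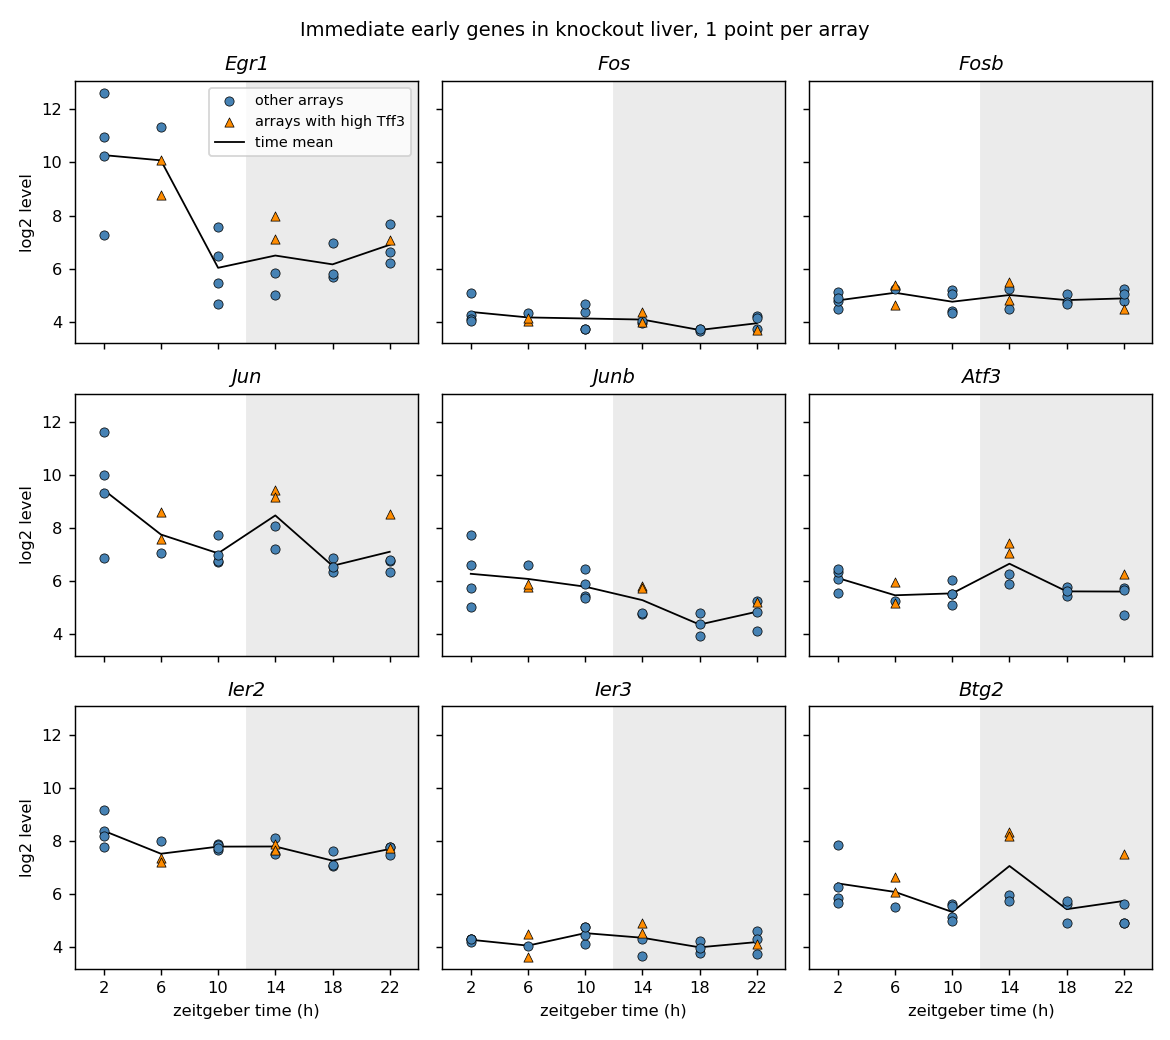
Log2 level of each of the 9 immediate early genes (1 panel per gene, shared vertical axis) against zeitgeber time in hours. Each point is 1 array, triangles are the 5 arrays with high Tff3, the line joins the time means and the dark phase is shaded; Egr1 lies above 8.7 at ZT6 in every array and below 7.6 at ZT10, while Fos, Fosb and Ier3 stay below 5.6.

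Egr1, a zinc-finger factor induced by growth factors and by insulin, had the largest change of the group. At ZT2 its arrays read 10.97, 12.62, 10.26 and 7.26, and at ZT6 they read 11.35, 10.10 and 8.79. At ZT10 the levels were 4.65, 7.55, 5.45 and 6.47, and at ZT14 they were 5.02, 7.99, 5.83 and 7.13. In the rest of the dark phase ZT18 gave 5.70, 6.98 and 5.80, and ZT22 gave 7.06, 6.63, 7.70 and 6.20. All arrays of ZT6 and all but ZT2d of ZT2 were thus above every array of the other 4 times. ZT2d, at 7.26, fell within the range of those later times.

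Egr1 averaged 10.28 ± 2.24 (SD, n = 4) at ZT2 and 10.08 ± 1.28 (n = 3) at ZT6. From ZT10 the means were 6.03 ± 1.26 (n = 4), then 6.49 ± 1.32 (n = 4), 6.16 ± 0.71 (n = 3) and, at ZT22, 6.90 ± 0.64 (n = 4). They fell into a high pair, ZT2 and ZT6, and a low set of 4, and within each set the means next to each other in order of level differed by less than the SD of either time. The highest mean was 19.0-fold above the lowest, with an adjusted p of 0.00113 for any difference among the times. A 24 h cosine fitted Egr1 with an amplitude of 2.21 ± 0.41 (SE) on the log2 scale, a 21.5-fold rise from trough to peak and its maximum at ZT3.51 ± 0.696 h (adjusted p = 0.00237). Egr1 lay at or below the median of its array in 2 of 22 arrays, down to 4.65, so its fold changes are less certain. Both calls held in all alternatives tried, with any single array left out and without the 5 arrays of high Tff3 (adjusted p = 0.00202 and 0.0015). In whole liver, fewer cells of a type and less RNA per cell cannot be told apart. Of the cell type markers, Hnf4a and Tat (hepatocytes), Clec4f (Kupffer cells), Clec4g and Kdr (endothelium) and Sox9 (cholangiocytes) also differed among the times (adjusted p from 0.009 to 0.0459). The 6 Kupffer markers, of which 1 was called, averaged 7.18 to 7.67 at ZT2, 6.91 to 7.29 at ZT6 and 6.87 to 7.67 at ZT10. In the dark phase they averaged 6.72 to 7.32 at ZT14, 6.85 to 7.10 at ZT18 and 6.75 to 7.36 at ZT22. The part of these differences in the levels of the early genes was not tested.

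The fall of Egr1 lay between ZT6 and ZT10. ZT10 minus ZT6 was -4.05 ± 0.87 on the log2 scale, 16.6-fold lower (adjusted p = 0.0246), the single call among all genes of the group and all 6 steps between neighbouring times. That step called 0.639% of all features, and the steps in which no gene of the group was called, taken from ZT6 minus ZT2 on and in order of the day, called 0.392%, 1.72%, 0.545%, 0.0811% and 0.131%. In those 5 steps the counts of the 9 genes at an unadjusted p below 0.05 were 2, 3, 4, 0 and 4, where 10.3%, 13.3%, 10%, 5.14% and 9.99% of all features lie below it. For ZT10 minus ZT6 the count was 1, where 11.5% of all features lie below it. The call was lost with a trended, robust prior (adjusted p = 0.0905), without ZT6a, ZT6b, ZT10a or ZT10c in turn (adjusted p from 0.0742 to 0.105), and without the 5 arrays of high Tff3, where the difference was -5.32 from 1 array at ZT6 (adjusted p = 0.101). The rise from ZT22 to ZT2 was 3.38 ± 0.81 and missed the threshold (adjusted p = 0.0959). It turned on ZT2d, without which it was 4.39 with an adjusted p of 0.00393.

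**Figure D2:**
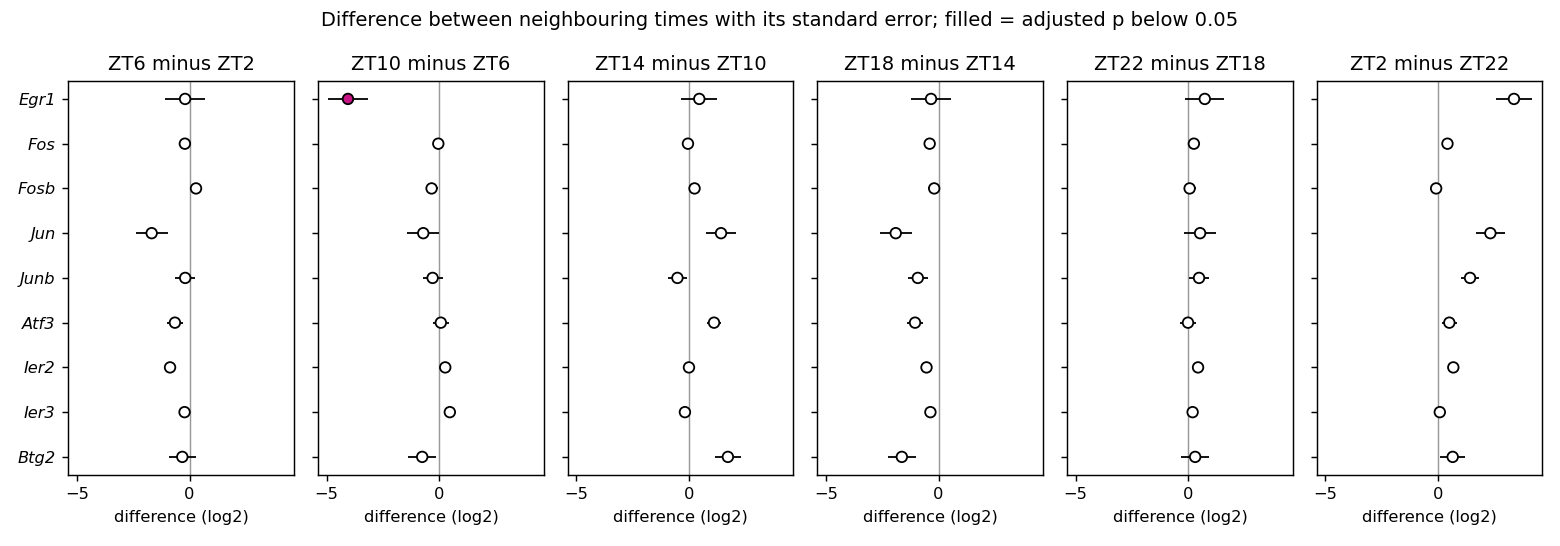
Differences in log2 level between neighbouring times (1 panel per step, the later time minus the earlier) for the 9 genes, with bars of 1 standard error. Filled points have an adjusted p below 0.05, which holds for Egr1 between ZT6 and ZT10 alone, at -4.05; Jun, Btg2 and Atf3 lie to the right at ZT14 minus ZT10 and to the left at ZT18 minus ZT14, with open points.

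Junb, an AP-1 subunit that competes with Jun for partners, declined from morning to the middle of the night. Its arrays read 5.76, 7.75, 6.60 and 5.02 at ZT2, then 6.61, 5.78 and 5.88 at ZT6. They read 5.44, 6.48, 5.38 and 5.89 at ZT10, and 4.78, 5.84, 4.81 and 5.73 at ZT14. At ZT18 the levels were 4.38, 3.94 and 4.79, and at ZT22 they were 5.21, 4.13, 4.83 and 5.24. No array of ZT18 reached the lowest array of ZT2, ZT6 or ZT10, but between neighbouring times the arrays overlapped. The time means ran from 6.28 ± 1.17 at ZT2 (SD, n = 4) through 6.09 ± 0.45, 5.80 ± 0.51 and 5.29 ± 0.57 to 4.37 ± 0.43 at ZT18 (n = 3), and 4.85 ± 0.52 at ZT22.

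The 24 h rhythm of Junb had a 3.50-fold span, an amplitude of 0.90 ± 0.19 and a peak at ZT5.94 ± 0.728 h (adjusted p = 0.00735), and was called in all alternatives tried. Junb lay at or below the median of its array in 10 of 22 arrays and at or below the lower quartile in 0. Its lowest levels, down to 3.94 in ZT18b, came close to background, so the fitted span and amplitude are less certain. The test of any difference gave an adjusted p of 0.0314 and was less firm. It was lost without ZT2c, ZT18a, ZT18b or ZT22c (adjusted p up to 0.0963), with the trended prior (0.051) and with an ordinary F test (0.135). No single step between neighbouring times was called for Junb, the largest being ZT2 minus ZT22 at 1.43 ± 0.41 (adjusted p = 0.196). The fitted peaks of Egr1 and Junb were ZT3.51 and ZT5.94; the difference between them was not tested.

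Jun, a main AP-1 subunit that the stress kinase JNK activates, had a course with a pair of high times. The levels at ZT2 were 9.31, 11.62, 9.99 and 6.86, and at ZT6 they were 7.06, 8.63 and 7.60. ZT10 gave 6.71, 7.76, 6.75 and 7.00, and ZT14 gave 7.20, 9.45, 8.09 and 9.19. ZT18 gave 6.34, 6.88 and 6.53, and ZT22 gave 8.55, 6.35, 6.75 and 6.80. Jun was highest in ZT2b, lowest in ZT18a, and overlapped between every pair of neighbouring times except ZT14 and ZT18.

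Jun averaged 9.45 ± 1.98 at ZT2 (SD, n = 4) and 7.76 ± 0.80 at ZT6 (n = 3), with 7.06 ± 0.49 at ZT10 (n = 4). The dark phase gave 8.48 ± 1.04 (n = 4), 6.58 ± 0.27 (n = 3) and 7.11 ± 0.98 (n = 4). The test of any difference gave an adjusted p of 0.0503, just over the threshold. Over the alternatives it ranged from 0.00103, without ZT2d, to 0.193, and 9 of 31 put it below 0.05. A 24 h cosine was not called (adjusted p = 0.564). The steps were 2.33 ± 0.66 for ZT2 minus ZT22 (adjusted p = 0.18) and -1.90 ± 0.71 for ZT18 minus ZT14 (adjusted p = 0.314). Without ZT2d the first was 3.19 (adjusted p = 0.00836).

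Atf3, a stress-induced member of the ATF/CREB family that can repress, read 6.10, 6.36, 6.47 and 5.56 at ZT2 and 5.27, 5.18 and 5.97 at ZT6. It read 5.09, 5.52, 5.53 and 6.04 at ZT10 and 5.88, 7.46, 6.26 and 7.05 at ZT14. ZT18 gave 5.79, 5.43 and 5.64, and ZT22 gave 6.29, 4.72, 5.76 and 5.68. The mean was highest at ZT14, 6.66 ± 0.72 (SD, n = 4), and lowest at ZT6, 5.47 ± 0.43 (n = 3), and all arrays of ZT14 lay above all of ZT18. The F test gave an adjusted p of 0.0986, and the difference ZT14 minus ZT10, 1.12 ± 0.32, gave 0.0807. That step passed the threshold without ZT14a (1.38, adjusted p = 0.0263), without ZT22b (0.0496), with arrayWeights (0.0227) and among features above the median level (0.0495). Without the 5 arrays of high Tff3 it was 0.53 with an adjusted p of 0.581.

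Btg2, an antiproliferative gene that p53 and growth signals induce, was high in single livers at 3 times. ZT2 gave 6.26, 7.83, 5.83 and 5.67, and ZT6 gave 5.51, 6.65 and 6.07. ZT10 gave 5.13, 5.62, 5.54 and 5.00, and ZT14 gave 5.97, 8.34, 5.73 and 8.18. ZT18 gave 5.64, 4.90 and 5.74, and ZT22 gave 7.50, 4.90, 4.91 and 5.64. At ZT14 and ZT22 the high arrays were ZT14b, ZT14d and ZT22a, all 3 with high Tff3, while ZT2b has low Tff3. Btg2 was not called among the times (adjusted p = 0.264), and its step ZT14 minus ZT10, 1.73 ± 0.57 with no overlap of arrays, gave an adjusted p of 0.133, or 0.04 with arrayWeights. Without the 5 arrays of high Tff3 the step was 0.53 with an adjusted p of 0.719.

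Ier2, a small nuclear protein gene of the early response, varied less between livers of the same time than these. It read 8.39, 9.17, 8.20 and 7.77 at ZT2 and 7.98, 7.35 and 7.22 at ZT6. It read 7.67, 7.87, 7.85 and 7.75 at ZT10 and 8.11, 7.87, 7.52 and 7.66 at ZT14. ZT18 gave 7.05, 7.63 and 7.09, and ZT22 gave 7.75, 7.48, 7.78 and 7.77. The mean was highest at ZT2, 8.38 ± 0.59, and lowest at ZT18, 7.26 ± 0.32, a 2.18-fold span. The F test missed the threshold at an adjusted p of 0.0609, with values from 0.0150 to 0.162 over the alternatives, and 6 of 31 below 0.05.

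Fos, Fosb and Ier3 gave little signal to compare. Fos, the partner of Jun in AP-1, lay at or below the median of its array in all 22 arrays and at or below the lower quartile in 6, with levels from 3.63 in ZT18b to 5.08 in ZT2b. Its means went from 4.37 ± 0.49 at ZT2 (SD, n = 4) to 3.69 ± 0.05 at ZT18 (n = 3), with adjusted p-values of 0.462 for any difference and 0.325 for 24 h. Fosb, its close relative, ranged from 4.34 to 5.51 and lay at or below the array median in 20 arrays and at or below the lower quartile in 0 (adjusted p = 0.895 and 0.985). Ier3, which encodes a membrane protein that modulates cell survival, ranged from 3.64 to 4.90, at or below the median in all 22 arrays and the lower quartile in 4 (adjusted p = 0.626 and 0.687). At such levels a change can hardly be seen, and a missed threshold does not show that a gene was constant.

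Livers of the same time differed strongly in several of these genes. The pooled SD within a time was 1.38 for Egr1, 1.12 for Jun, 0.956 for Btg2, 0.683 for Junb and 0.514 for Atf3 on the log2 scale. These stand at percentiles 99.9, 99.7, 99.5, 98.7 and 94.8 of all features, whereas Ier2, Fos, Fosb and Ier3 lay between 58.7 and 70.6. At ZT2, ZT2b was the highest of the 4 arrays in 6 of the 9 genes and ZT2d the lowest in 7. In Egr1 the pair stood 12.62 to 7.26, in Jun 11.62 to 6.86, and in Junb 7.75 to 5.02. Elsewhere ZT14a was the lowest in 7 genes and ZT10b the highest in 6. The shares of all features with these extremes were not computed. The interquartile range of all values was 4.37 in ZT2d, against 4.55 to 4.63 in the other arrays of ZT2. It was 4.38 in ZT14a, against 4.61 to 4.82 in the other arrays of ZT14. ZT10c had 4.36 and was the lowest in 2 genes. The part of these ranges in the spread was not tested.

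**Figure D3:**
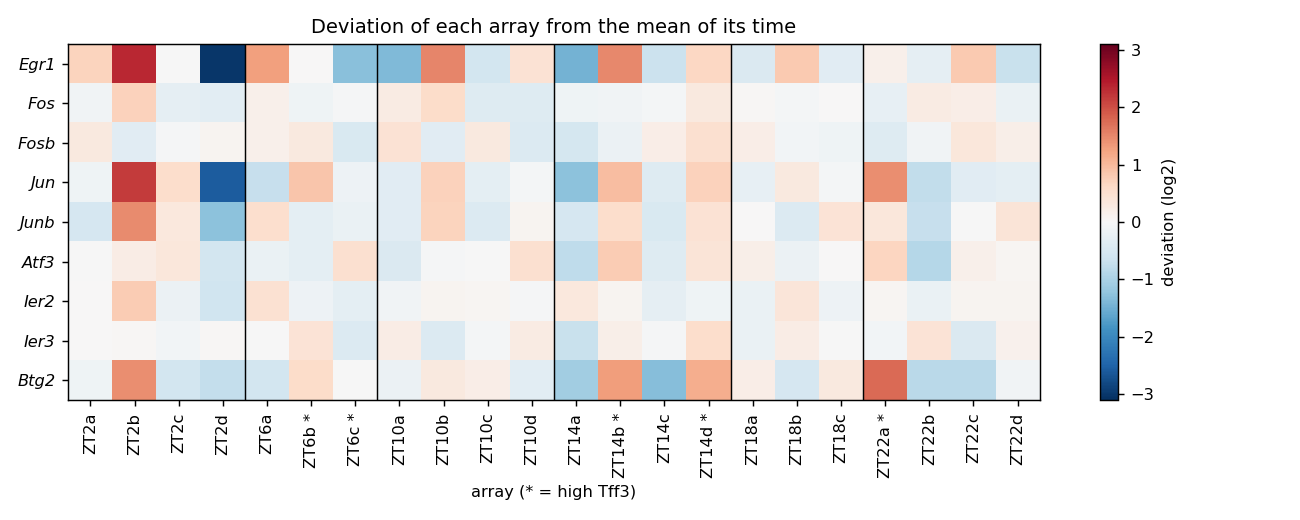
Deviation of each array from the mean of its time on the log2 scale (red above, blue below) for the 9 genes in rows and the 22 arrays in columns, with vertical lines between times and stars on the 5 arrays with high Tff3. Egr1, Jun, Junb and Btg2 are above their time mean in ZT2b and below it in ZT2d, and Jun and Btg2 are above it in ZT14b, ZT14d and ZT22a.

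Array ZT2b also had the highest cholangiocyte markers of its time, with a mean over the 4 genes of 6.31 against 5.02 to 5.44 in the other arrays of ZT2. Krt19 read 6.12 there against 3.20 to 4.30. Of the 4 acinar markers, which averaged 5.15 in ZT2b and 4.43 to 5.00 in the others, Ctrb1 read 6.04 against 3.19 to 4.16, while the other 3 were higher in ZT2a than in ZT2b. The 5 stellate markers averaged 8.62 in ZT2b and 7.85 to 8.31 in the others, where ZT2d had the 8.31. Of these markers, Des read 6.34 in ZT2b against 4.04 to 5.11. Lrat alone went the other way, with 8.29 in ZT2b, 8.56 in ZT2c and 9.11 in ZT2d. The hepatocyte mean was 17.87 to 17.89 in all 4. The part of the cell type markers in the spread of the early genes at ZT2 was likewise not tested. Neutrophil and lymphocyte markers stayed between 3.73 and 5.10 on average in every array.

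The shared spread can be described by how the deviations from the time means ran together over the 22 arrays, which share their processing. With Egr1, Jun had a Pearson r of 0.753 (Spearman 0.609) and stood in place 15 of 22205 other features, Junb had 0.745 (0.598) in place 20, and Ier2 0.689 (0.61) in place 65. Without the 2 arrays farthest from the median of Egr1 the values of r were 0.488, 0.521 and 0.406, so a good part of the likeness rested on those arrays. Jun and Btg2 had 0.764 (0.827), which was 0.797 without the 2 arrays farthest from the median of Jun. Jun and Junb had 0.763 (0.63), and 0.508 without those arrays. Among the features most like Jun, Btg2 stood in place 63, Junb in place 64 and Atf3 in place 582 of 22205. Fosb ran with none of these, at -0.101 with Egr1 and -0.181 with Jun, and Ier3 had 0.135 with Egr1.

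Over the undivided values, the named genes most like Egr1 were Ccdc14 (r = 0.805), Olfr895 (0.761), Atxn7l1 (0.739), Ccdc50 (0.734) and Rell1 (0.734), over 22 arrays. With Ccdc14 the r was 0.713 without the 2 farthest arrays. Olfr895, an olfactory receptor gene, had a mean level of 3.04, near background. For the deviations of Fos the most like were Cdc73 (0.789), Fxyd6 (0.773), Ckmt1 (0.763), Vmn1r52 (0.76) and Olfr948 (0.756). Fos itself is dim, as are Ckmt1 (mean level 2.84), Vmn1r52 (3.71) and Olfr948 (4.25).

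Jun and Btg2 were the members that followed the arrays with high Tff3. In both genes those arrays lay above every other array of their time, and 0 of the 9 genes lay below; over all features 4.76% lay above and 3.64% below, and since Tff3 was seen in the values first this is a description. Without these arrays the ZT14 mean of Btg2 was 5.85 (n = 2) in place of 7.06, that of Jun 7.65 in place of 8.48, and that of Atf3 6.07 in place of 6.66. The ZT14 mean of Junb was 4.80 without them and 5.29 with them. Jun was called among the times without them (adjusted p = 0.042), Junb stayed called (0.0358), and Btg2 had 0.226. The markers likewise higher in these 5 arrays than in the others of their time were 2 of 5 endothelial ones, Lyve1 and Pecam1. With them went 1 of 6 Kupffer markers, Cd5l, and 1 of 6 hepatocyte markers, Cps1. Of the 5 stellate and the 4 cholangiocyte markers 0 did so. The part of these markers in the result was not tested.

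**Figure D4:**
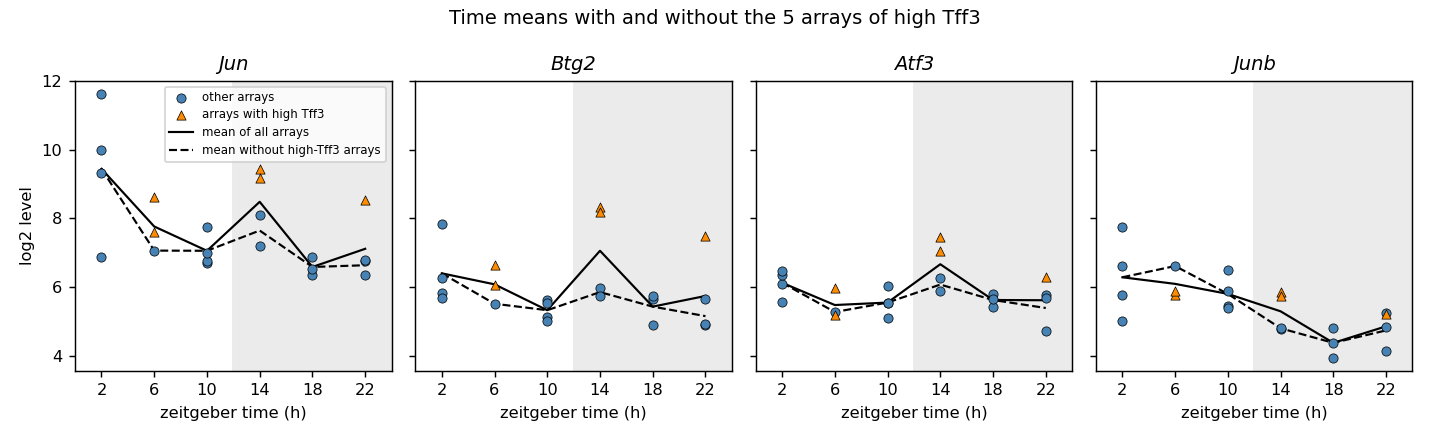
Log2 level against zeitgeber time in hours for Jun, Btg2, Atf3 and Junb, with 1 point per array (triangles, high Tff3), the mean of all arrays as a solid line and the mean without the 5 high-Tff3 arrays as a dashed line; ZT6 then rests on 1 array and ZT14 on 2. The ZT14 mean of Btg2 is 7.06 with and 5.85 without these arrays.

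Among the relatives of these genes no call was made with all arrays. Of 13 other AP-1 and related leucine-zipper genes 12 were measured, and 0 passed either of limma's tests, with 4 at an unadjusted p below 0.05 in each, where 19.8% and 21.1% of all features lie below it. The lowest adjusted p of any difference was 0.107 for Batf, followed by Jund (0.138), Atf4 (0.204) and Fosl2 (0.245). All 8 EGR and NR4A relatives were measured and 0 passed, with 2 and 3 at an unadjusted p below 0.05. Nr4a3 had 0.0729 and Nr4a1, an orphan nuclear receptor of the early response, 0.132, with means of 5.23 at ZT2 and 3.87 at ZT10. Nab1, a corepressor of EGR proteins, had 0.346 and Egr3 0.396. Without the 5 arrays of high Tff3, Nr4a1 passed both tests (adjusted p = 0.032 and 0.0118), Nr4a3 had 0.602 and Jund 0.459 for any difference. With single arrays left out or under other settings, Batf, Jund, Nr4a3 and Nr4a1 each passed a test in some of the fits. The median span of time means was 0.63 and 0.56 on the log2 scale in these lists.

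Among 42 other growth-factor and stress-induced early genes, 11 passed the test of any difference (6.14% of all features) and 8 that of a 24 h rhythm (7.62%), with 12 in either and 7 in both. Their fitted peaks were spread over the day. Zfp36l1, which encodes an RNA-decay factor, had means of 15.55 at ZT2 and 12.72 at ZT10 and a fitted peak at ZT22.7 (4.82-fold span, adjusted p = 2.85e-06 for any difference). Btg1, a relative of Btg2, peaked at ZT23.6 with a 3.28-fold span (3.87e-05). The clock gene Per1, which is also an early response gene, peaked at ZT13.4 with 9.01-fold (5.2e-06). These fitted peaks lie in the dark phase, that of Btg1 close to lights on, and that of Egr1 in the light phase. By the observed time means, however, Zfp36l1 was highest at ZT2 and lowest at ZT10, the same times as Egr1. Btg1 had its highest mean at ZT22 and Per1 at ZT14. The differences between the peaks were not tested.

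Ccn1, a matricellular protein gene and a classic early gene, had a low mean at ZT10 between higher ones at ZT6 and ZT14. Its means were 9.24, 9.21 and 7.73 in the light phase and 9.46, 8.02 and 8.84 in the dark phase, in order of time (adjusted p = 0.000366 for any difference). It fell by 1.48 from ZT6 to ZT10 (adjusted p = 0.0129), rose by 1.73 to ZT14 (0.000755) and fell by 1.45 to ZT18 (0.0193). For Jun the same steps were -0.71, 1.43 and -1.90, none past the threshold, and without the 5 arrays of high Tff3 they were -0.0050, 0.59 and -1.06. The means of Ccn1 without those arrays were 9.09 at ZT6, 7.73 at ZT10, 9.23 at ZT14 and 8.02 at ZT18 (adjusted p = 0.00872 for any difference). Whether the steps of the 2 genes differ was not tested.

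Of 24 upstream factors and kinases 19 were measured. Of these, 1 passed the test of any difference (6.14% of all features) and 2 that of a rhythm (7.62%), near those shares. Mapk14, the p38 stress kinase, had its fitted peak at ZT16.9 and a 1.79-fold span (adjusted p = 0.0213 and 0.00146). Neither call held without the 5 arrays of high Tff3 (0.243 and 0.0561). Mrtfb, a coactivator of serum response factor, peaked at ZT19.5 with a 2.02-fold span (24 h adjusted p = 0.00922), and 0.0217 without those arrays. Crtc3, a coactivator of CREB, and Met, the receptor of hepatocyte growth factor, did not pass (adjusted p = 0.113 and 0.14 for any difference).

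**Figure D5:**
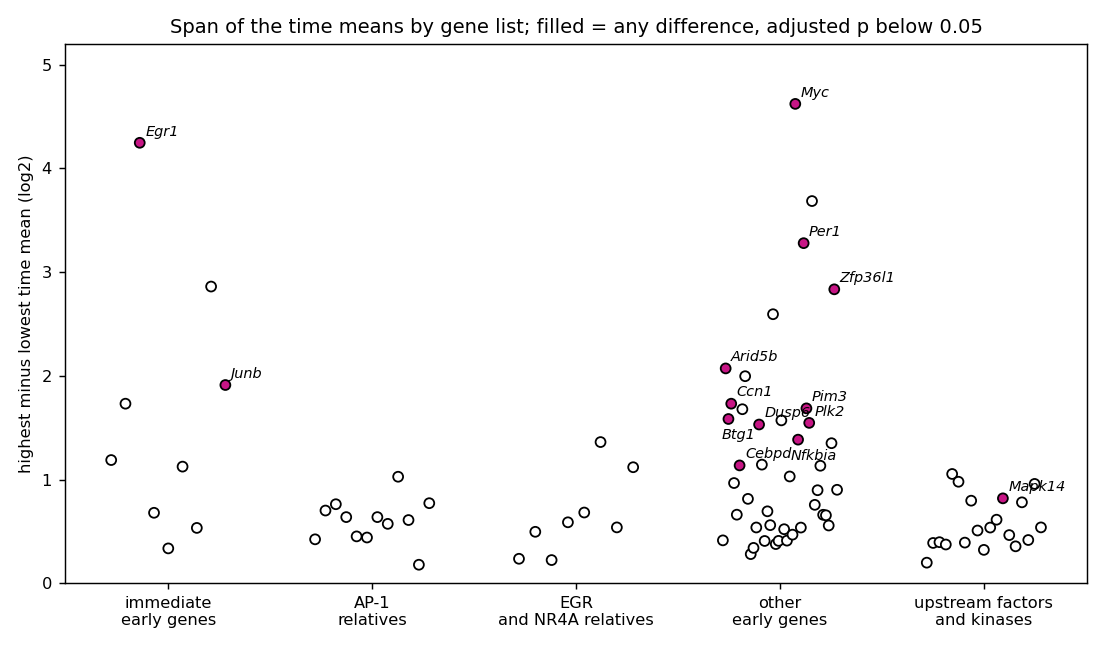
Highest minus lowest time mean on the log2 scale for every measured gene of the immediate early group and of 4 lists of related genes, 1 point per gene. Filled and named points passed the test of any difference among the 6 times (adjusted p below 0.05), 2 of 9 in the first group, 0 of 12, 0 of 8, 11 of 42 and 1 of 19 in the others.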

How the data were processed

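The authors deposited 1 log2 expression value per feature and array, rounded to 2 decimals; the base is not stated and was taken as log2 from a range of 1.68 to 19.87. Per the labels' protocols, 100 ng of RNA per liver was labelled for Clariom S arrays. Background correction, normalization, software and build of the authors were not given in the sources used here. No detection calls came with the values, and the number of arrays limits the precision.

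Gene names come from the array annotation (19572 of 22206 features have 1 symbol, 2634 none, 0 several). R 4.3.3, limma 3.58.1 (lmFit, eBayes) and the package data.table (version 1.17.8) were used on all features with no filter: an F test of the 6 time means, an F test of a cosinor model with a period of 24 h, and the 6 steps between neighbouring times from the same model. p-values were Benjamini-Hochberg adjusted over all features (threshold 0.05). Scripts were tested on simulated data. The members and the lists were chosen with earlier results of these data known. Named were all members, up to 4 genes of lowest adjusted p per related list, the 5 genes most like Egr1 and the 5 most like Fos, Tff3 and Adipoq; markers and other genes were named after their values were seen. Alternatives were scaling, a filter, the prior, weights, the letter as a block, an ordinary F test, a threshold of 0.01, fits of 2 times, and arrays left out.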

Additional observations from a re-analysis of the deposited data

Results flagged for a closer look

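In 36 groups of 4 arrays (9 genes at 4 times), the gap of the highest or lowest array was set against the range of its group, a rule that chance meets in about 1 of 20 groups. It was met by 2. In Ier2 at ZT22, array ZT22b read 7.48, below 7.75 to 7.78 in the other 3. In Ier3 at ZT2, array ZT2c read 4.19, below 4.29 to 4.31, at a level close to background. ZT2d, which was low in 7 of the 9 genes, met the rule in none of them, since the other arrays of ZT2 differed as well.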

How the results depend on the processing

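Egr1 and Junb kept their 24 h calls and Egr1 its call among the times in every alternative run. Over 484 recomputed counts, 406 were within 1.5 times of the main count; of 3140 single-gene results, 20 lost a call, 52 gained one and 0 reversed. The cause of the changes was not tested. Members called among the times, 2 of 9, became 4 with quantile normalization, 4 among features above the median level, 5 with arrayWeights, 1 with an ordinary F test and 1 at a threshold of 0.01, where features called were 668 (in place of 1363) and rhythmic features 830 (in place of 1691). Single arrays left out gave 1 to 4 members.

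With the letter as a replicate block, members called stayed 2 in both tests, but among the times these were Egr1 and Jun (adjusted p = 0.0338), not Junb (0.0567), and features called were 1169 and 1527. Letters were not taken to pair arrays: same-letter deviations had a median r of 0.00278 (lowest -0.236), and 5 of 22 arrays correlated best with their own letter.

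Of the steps, ZT6 minus ZT2 (87 features) gave 43 with arrayWeights, 17 in a fit of these 2 times and 50 without the 5 arrays of high Tff3, and 29 to 117 with single arrays left out. ZT10 minus ZT6 (142 features, 1 member) gave 221 above the median level, 47 with 2 times and 28 without high Tff3; members were 0 with a trended robust prior and 0 without high Tff3; single arrays gave 62 to 315 features and 0 to 1 member. ZT14 minus ZT10 (381, 0) gave 609 with arrayWeights, 248 with 2 times and 156 without high Tff3; members were 1 above the median level and 2 with arrayWeights; single arrays gave 188 to 469 and 0 to 1. ZT18 minus ZT14 (121, 0) gave 198 above the median level, 489 with arrayWeights, with 2 members, 61 with 2 times and 56 without high Tff3, and single arrays 24 to 219. ZT22 minus ZT18 (18) gave 31 with the trended prior, 80 with arrayWeights, 49 with 2 times and 30 without high Tff3, and single arrays 7 to 30. ZT2 minus ZT22 (29, 0) gave 68 above the median level, 50 with the trended prior, 64 with arrayWeights, with 2 members, 17 with 2 times and 44 without high Tff3; single arrays gave 15 to 44 features and 0 to 2 members.

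With 3 or 4 arrays a time and a pooled SD of 0.956 in Btg2 and 1.12 in Jun within a time, steps in Jun and Btg2 well over 2-fold missed the threshold. Fos, Fosb and Ier3 are limited by their signal. Where a time is left with 1 array, that array is assumed to vary like the others.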

Other observations

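Other early genes outside the immediate early group also passed a test, of any difference or of a 24 h rhythm, and are named here after their values were seen. Myc, a transcription factor of growth, had the widest span of the 42, from a mean of 5.71 at ZT18 to 10.33 at ZT10 (adjusted p = 0.0354), so that it was high at a time when Egr1 was low. Its SD at ZT10 was 2.25 (n = 4), and a 24 h rhythm was not called (adjusted p = 0.244). Nfkbia, which encodes an inhibitor of NF-kappaB, peaked at ZT9.35 with a 1.96-fold span, and Pim3, a kinase gene, at ZT10.4 with 2.42-fold (24 h adjusted p = 0.0141 and 0.00718). Cebpd peaked at ZT15.6 with 1.83-fold (0.0116), Arid5b at ZT6.61 with 3.62-fold (0.0205) and Klf10 at ZT8.76 with 2.77-fold (0.0321). Dusp6, a phosphatase that acts on ERK, was highest at ZT14 (9.98) and lowest at ZT18 (8.45), with an adjusted p of 0.0254 for any difference, and Plk2 had 0.0314.

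The named genes whose deviations from the time means were most like those of Jun were Jund (r = 0.906, Spearman 0.858), Gatad1 (0.9), Impact (0.899), Eif6 (0.881) and Nckap1 (0.878), over 22 arrays that share their processing. Without ZT2b and ZT2d, the arrays in which Jun lay farthest from its median, the r with Jund was 0.858. Jund, an AP-1 subunit, had means of 8.93 at ZT10, 9.94 at ZT14 and 8.91 at ZT18, and its step ZT14 minus ZT10 of 1.01 ± 0.29 had an adjusted p of 0.0807. At ZT14 the arrays with high Tff3 read 10.47 and 10.40 and the other two 9.38 and 9.49, so that the mean without them was 9.44 (n = 2).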
